A study of Mus musculus with 2 samples.

Results

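Pro-remodeling fibro-adipogenic progenitors (FAPs) were examined by single-cell RNA sequencing in 2 libraries of the mouse tibialis anterior, a muscle at the front of the lower leg, collected 2 days and 7 days after injection of notexin, a snake toxin that destroys muscle fibres. The members were the cell barcodes that the deposited annotation calls pro-remodeling FAPs: 138 of 3178 annotated cells at day 2 and 495 of 3196 at day 7. Each library came from 1 mouse and each day has 1 library, so no comparison below has a replicate check. Day, mouse and library cannot be told apart. Both samples are labelled C57Bl/6, female and 7 months old, with no allele or agent other than notexin, whereas the deposited cell table calls the mice C57BL/6J and male and gives 4 months at day 2 and 7 months at day 7. No uninjured library was analysed here. Whole muscle was dissociated, and the cell types were assigned by the authors in a much larger integrated collection, so they rest on cells beyond these libraries. Intervals in parentheses are 95% intervals that cover counting error only.

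FAPs are mesenchymal cells that lie between muscle fibres and carry the receptor Pdgfra. After injury they expand, release factors that act on muscle stem cells and immune cells, and lay down the matrix in which fibres regrow. They can also turn into fat cells or persist as matrix-producing fibroblasts when repair fails. The other FAP labels in the annotation were adipogenic FAPs (30 and 232 cells) and stem-like FAPs (47 and 78 cells).

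Pro-remodeling FAPs made up 4.34% (3.66 to 5.11) of the annotated cells at day 2 and 15.5% (14.3 to 16.8) at day 7. Their share among the cells of the FAP labels was close on both days, 64.2% (57.4 to 70.6) at day 2 against 61.5% (58.0 to 64.9) later, with intervals that overlapped. The other labels shifted instead, from 14.0% to 28.8% for adipogenic FAPs and from 21.9% to 9.69% for stem-like FAPs. The members were deeply sampled. A cell held a median of 26218 unique molecular identifier (UMI) counts (lowest 7604, highest 45456) and 4945 genes at day 2. At day 7 the medians were 10156 counts (3034 to 49773) and 3228 genes. Because depth differed, levels are given as CPM, the counts of a gene summed over the members and scaled to a common total, and shares of cells after thinning each cell to 3000 counts. Cells with fewer counts were left out of these shares: 0 of the members on either day, 5 of 30 adipogenic FAPs at day 2, and 45 of 232 adipogenic and 11 of 78 stem-like FAPs at day 7. Across the series, the libraries shared 4 called barcodes, none of them members, and the called barcodes held 41123913 counts at day 2 and 32356088 at day 7.

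The label was checked against Pdgfra, Smoc2 (a matricellular protein), Mme (the membrane peptidase neprilysin), Cxcl5 (a neutrophil-attracting chemokine) and Ptx3 (a soluble pattern-recognition protein). These genes were open to the clustering that made the labels, so their levels are a description. Pdgfra (chr5:75152292-75198215, GRCm38) was at 639 CPM (612 to 666) at day 2 and 445 CPM (428 to 462) at day 7. Smoc2 (chr17:14279506-14404790) was at 921 CPM and 2673 CPM, and Mme (chr3:63241537-63386030) at 97.2 CPM and 134 CPM. Cxcl5 (chr5:90759360-90761624) was at 7720.1 CPM (7628 to 7813) at day 2 and 7.47 CPM (5.43 to 10.0) at day 7. Ptx3 (chr3:66219910-66225805) was at 1596 CPM and 50.4 CPM. Of the 18 labels with at least 20 cells at day 2, pro-remodeling FAPs ranked first for Smoc2, Mme, Cxcl5 and Ptx3 and second for Pdgfra, behind adipogenic FAPs. Of 23 such labels at day 7 they ranked first for Smoc2 and Mme, second for Pdgfra and at rank 3 for Ptx3. They also ranked first for Cxcl5, at a level where 44 counts in all were found. These ranks do not set the members apart from the other FAP labels in every marker: against those labels pooled, Pdgfra was within 2-fold on both days and Smoc2 at day 7. Clustering of these libraries alone drew the lines elsewhere: 1 cluster held all 138 day 2 members together with 19 adipogenic and 46 stem-like FAPs, and at day 7 the members fell mainly into 2 clusters (305 and 184 cells) that also held 103 and 76 adipogenic FAPs. Members of the 2 days fell into different clusters: that of day 2 held 2 of the 495 day 7 members, and those of day 7 held no day 2 cell. Another 10 of the 30 adipogenic FAPs at day 2 fell into a cluster led by neural cells, although none of the 6 neural and glial markers had a count in the adipogenic FAPs of that day. Of all cells in clusters led by a FAP label, 203 of 204 at day 2 and 704 of 835 at day 7 were in clusters led by pro-remodeling FAPs, cells of other labels included.

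**Figure D1:**
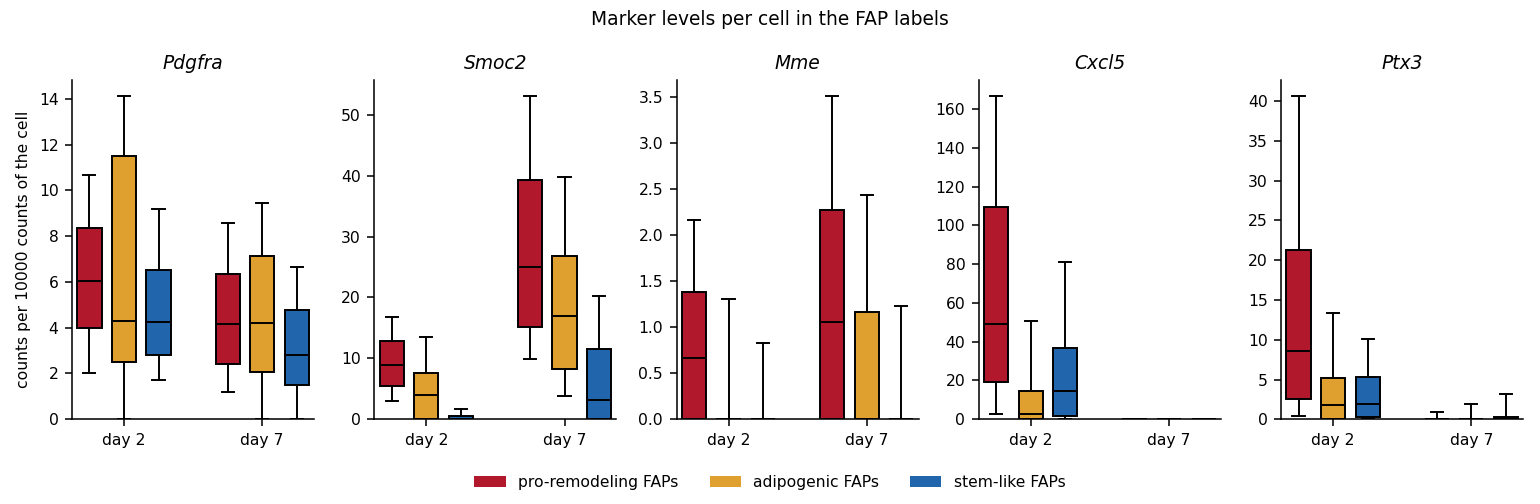
Levels of the 5 markers in single cells of the 3 FAP labels at day 2 and day 7, in counts per 10000 counts of the cell (boxes: quartiles; black line: median; whiskers: 10th and 90th percentiles over cells). Cxcl5 and Ptx3 stand high in the day 2 members and near 0 in every FAP label at day 7, and Smoc2 is higher in pro-remodeling than in stem-like FAPs on both days.

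The plot of markers in single cells shows how the members varied. Cxcl5 ran from 2.97 counts per 10000 at the 10th percentile of day 2 members through a median of 49.4 to 167 at the 90th percentile. At day 7 the median was 0 and the highest of 495 cells reached 4.65. After thinning, 93.5% of day 2 members and 1.41% of day 7 members held a Cxcl5 count (97.1% and 2.83% without thinning). Neutrophils, taken as cells that should lack these genes, held one in 5.98% of the 117 cells deep enough to thin at day 2. All 708 neutrophils had a median depth of 2351 counts, and 591 were left out. Lymphocytes at day 7 held one in 0 of 259 thinned cells, which allows a share of cells with a count of up to 1.16% (3 counts of the total), and all 417 lymphocytes had a median depth of 3625 counts, with 158 left out. Smoc2 shares were 89.1% and 98.0%, and Pdgfra shares 76.8% and 70.9% (98.6% and 94.9% without thinning).

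Between the days, 8163 genes reached a mean of 10 CPM over both sums. Of these, 1587 (19.4%) were at least 2-fold higher at day 7 and 1273 (15.6%) at least 2-fold lower, 35% in all. The median log2 ratio over all of them was 0.05. Below, higher and lower mean past this 2-fold line, and each list of genes is read against those background shares. Genes outside the naming rule that fill out a count of 5 or fewer were chosen after their values were seen.

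**Figure D2:**
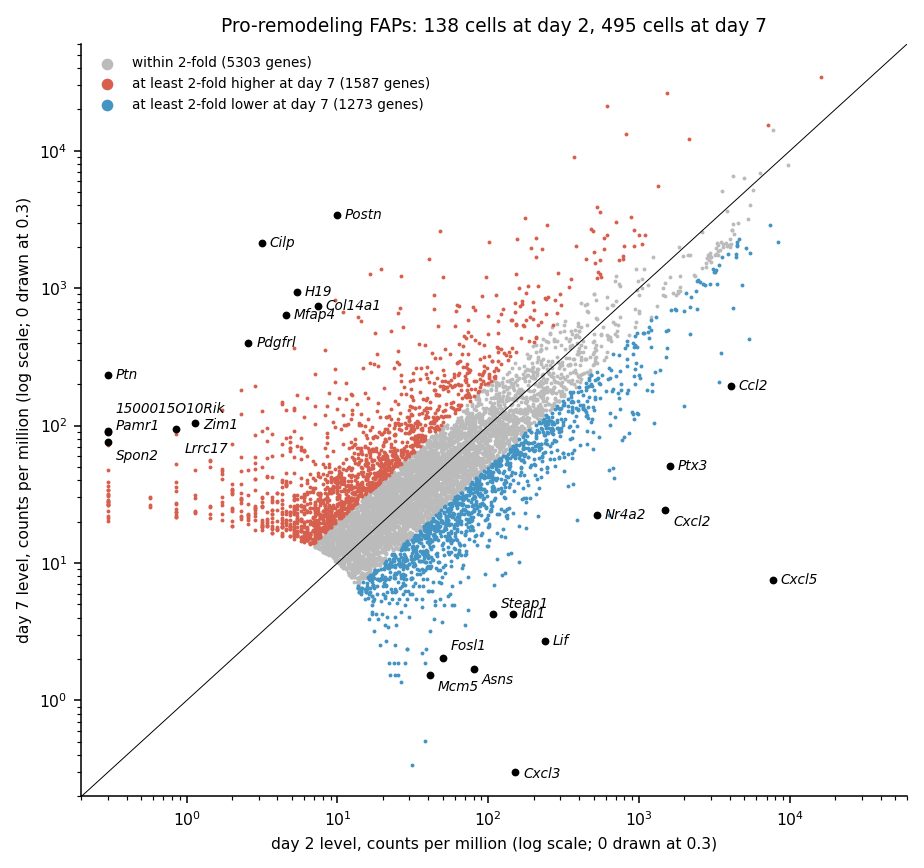
CPM of each gene in pro-remodeling FAPs at day 2 (x axis) and day 7 (y axis), both on log scales, with 1 point per gene and the diagonal marking equal levels. The genes named by size of ratio are black; Cxcl5 lies far to the lower right, and Cilp and Postn far to the upper left.

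Of the 7 listed chemokines of the family that draws neutrophils, Cxcl1, Cxcl2 and Cxcl5 stood high at day 2. Cxcl2 and Cxcl5 were low at day 7. All 5 tested members of that list were lower at day 7 (Cxcl1, Cxcl2, Cxcl3, Cxcl5 and the platelet factor Pf4), and their median log2 ratio was -5.95. Together the list summed to 14753 CPM at day 2 and 463 CPM at day 7. Cxcl5 had the smallest ratio of the 6323 genes that could be ranked (log2 ratio -10.01, -10.47 to -9.59). Cxcl3 gave 529 counts in the day 2 members and 0 at day 7, so it was at least 296-fold lower. Cxcl1 went from 5351 CPM (5275 to 5428) to 429.7 CPM (413 to 447) and Cxcl2 from 1496 CPM to 24.3 CPM. The Cxcl2 level at day 2 was close to that of free RNA in near-empty barcodes (1468 CPM), and 8 other labels held more. For Cxcl5 the free RNA was at 495 CPM, far below the members. Pf4, at 26.2 CPM in the day 2 members, was at 929.7 CPM in free RNA. These genes are close relatives that lie together on chromosome 5, and reads could be split among the near-identical parts of Cxcl1, Cxcl2 and Cxcl3.

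The promoters of these 3 chemokine genes are shown because the genes moved together, with Ptx3, another gene high at day 2, and Cilp, the gene with the largest ratio, for contrast. Each runs from 250 bases before to 50 bases after the start of transcription in RefSeq (GRCm38.p6, plus strand), so it covers the region upstream and the start of the first exon. Capitals mark 2 motifs, searched on both strands: the NF-kB-type motif (GGG, any 2 bases, then TTTCC), a form bound by the transcription factor of inflammatory signalling, and TATAAA, the TATA box. The marked matches do not overlap.

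Cxcl1 (chr5:90890995-90891294): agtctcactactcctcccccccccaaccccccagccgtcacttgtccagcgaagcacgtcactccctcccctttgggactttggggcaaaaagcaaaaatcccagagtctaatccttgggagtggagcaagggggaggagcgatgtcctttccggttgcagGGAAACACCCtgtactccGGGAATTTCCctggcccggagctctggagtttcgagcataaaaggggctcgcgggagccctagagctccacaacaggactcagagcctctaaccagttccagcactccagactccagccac
Cxcl2 (chr5:90903649-90903948): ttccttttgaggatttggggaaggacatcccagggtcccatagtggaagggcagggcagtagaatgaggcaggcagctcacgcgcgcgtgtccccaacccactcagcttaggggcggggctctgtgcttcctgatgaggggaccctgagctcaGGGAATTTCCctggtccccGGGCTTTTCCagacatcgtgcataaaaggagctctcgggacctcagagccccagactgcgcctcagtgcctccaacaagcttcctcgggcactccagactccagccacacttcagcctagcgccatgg
Cxcl3 (chr5:90785851-90786150): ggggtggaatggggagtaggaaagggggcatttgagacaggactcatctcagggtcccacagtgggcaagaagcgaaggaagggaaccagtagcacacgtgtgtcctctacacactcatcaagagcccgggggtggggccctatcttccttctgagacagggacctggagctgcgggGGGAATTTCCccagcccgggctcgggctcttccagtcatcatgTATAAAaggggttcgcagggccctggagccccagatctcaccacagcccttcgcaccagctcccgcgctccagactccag
Ptx3 (chr3:66219637-66219936): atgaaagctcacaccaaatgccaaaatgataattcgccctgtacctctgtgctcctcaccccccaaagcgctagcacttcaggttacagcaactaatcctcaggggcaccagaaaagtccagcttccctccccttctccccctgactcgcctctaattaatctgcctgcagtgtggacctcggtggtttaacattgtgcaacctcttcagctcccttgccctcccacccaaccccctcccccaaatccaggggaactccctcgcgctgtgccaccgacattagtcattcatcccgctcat
Cilp (chr9:65264930-65265229): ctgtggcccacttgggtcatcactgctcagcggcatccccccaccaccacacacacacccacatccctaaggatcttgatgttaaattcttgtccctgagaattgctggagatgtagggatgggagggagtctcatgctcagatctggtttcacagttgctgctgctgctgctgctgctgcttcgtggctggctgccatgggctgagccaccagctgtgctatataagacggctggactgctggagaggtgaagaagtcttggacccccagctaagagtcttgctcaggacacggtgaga

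The NF-kB-type motif was present in the promoters of Cxcl1, Cxcl2 and Cxcl3, with 2 matches each for Cxcl1 and Cxcl2 and 1 match for Cxcl3. It was found in 1.63% of all 32851 promoters of this length. Over the whole neutrophil-recruiting list, 3 of the 6 genes with a promoter at hand held it, and these 3 are related sequences; Cxcl5 had no entry. Of 35 collagen genes with a promoter, 1 held it (Col17a1). TATAAA was found in 13.6% of all promoters, and of the 5 printed it was in Cxcl3. The motifs TGANTCA (AP-1), GGAATG (TEAD) and CAGACA (SMAD) were searched as well and were found in 7.81%, 14.7% and 21.0% of all promoters. Cxcl3 held GGAATG once and Cxcl2 held CAGACA once, the latter sharing its first base with the end of the second NF-kB-type match, and none of the 5 motifs was found in Ptx3 or Cilp. A match is a description of the letters and no measure of binding.

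Of 12 tested cytokines 9 were lower and 2 higher at day 7. Il6, which acts on muscle stem cells and leukocytes, went from 682 CPM to 41.3 CPM (log2 ratio -4.05, -4.24 to -3.86). Lif, an Il6-family cytokine, went from 237 to 2.72 CPM (log2 ratio -6.45, -7.26 to -5.74) and Il11, of the same family, from 69.9 to 3.57 CPM. Without thinning, 37 of 138 day 2 members held Il11, and the 14 cells with the most carried 87.8% of its counts. Csf1, the growth factor of macrophages, went from 929 CPM in the day 2 members to 112 CPM. The 2 higher cytokines were Il34, a second ligand of the Csf1 receptor, at 2.85 and 40.7 CPM, and Il15 at 2.00 and 20.2 CPM. The ligands of the Csf1 receptor thus differed between the days in opposite directions. The monocyte attractants Ccl2 and Ccl7 were at 4072 and 1999 CPM at day 2 against 195 and 138 CPM at day 7. Among 9 tested members of the list of other chemokines 4 were higher and 3 lower. The higher ones were Ccl8, Ccl11, Cxcl9 and Cxcl10, the last 2 attractants of activated T cells, with Cxcl10 at 17.4 and 282 CPM. Besides Ccl2 and Ccl7 the lower one was Cxcl14, a chemokine of resting tissues, which was abundant on both days, 7362 and 2900.4 CPM (log2 ratio -1.34, -1.37 to -1.32).

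Of 19 tested interleukin and tumour necrosis factor receptors 6 were lower and 1 higher, against 15.6% and 19.4% of all genes. Il1r1, the signalling receptor for interleukin 1, was at 281 CPM at day 2 and 76.9 CPM at day 7. Il1rl1, the receptor for interleukin 33, was at 47.3 and 7.30 CPM. Lifr, the receptor for Lif, was the higher one, at 72.4 and 242 CPM, in contrast to its ligand. The shared subunit Il6st was at 464 and 238 CPM, within 2-fold. In the list of NF-kB members and feedback genes, 8 of 16 were lower and none higher. Nfkb1, a subunit, went from 963 to 123 CPM, Nfkbia, its inhibitor, from 742 to 133 CPM, and Sod2, a mitochondrial antioxidant enzyme, from 629.5 to 47.7 CPM.

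Acute-phase genes were lower in 6 of 8 cases and higher in 1, the RNA sensor Tlr3 (7.13 and 14.3 CPM). Ptx3 had a log2 ratio of -4.98. Tnfaip6, which links hyaluronan to matrix proteins, went from 829 to 171 CPM, and the hyaluronan synthase Has1 from 641 to 101 CPM. Saa3, a serum amyloid protein, went from 635 to 22.4 CPM but was unevenly spread: after thinning, 13.8% of the day 2 members held a count and the 14 cells with the most carried 96.7% of them. At day 7, 1 cell carried 49.2% of the Saa3 counts, and without it the level was 11.4 CPM. Csf2, the granulocyte and macrophage factor, was found in 9 of 138 day 2 members, at 31.1 CPM, and 1 cell carried 35.8% of its counts. By contrast, 95.7% of thinned day 2 members held Cxcl1, 93.5% Cxcl5, 92.0% Ccl2 and 93.5% Timp1. In thinned neutrophils of that library the shares were 19.7% for Cxcl1, 5.98% for Cxcl5, 25.6% for Ccl2 and 8.55% for Timp1. Complement genes had the opposite direction. Of 10 tested, 8 were higher at day 7 and none lower, among them C1s1, a protease of the classical pathway (151 and 779.9 CPM), and its inhibitor Serping1 (585 and 2327 CPM). C3, the central component, was at 668 and 761 CPM, within 2-fold.

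**Figure D3:**
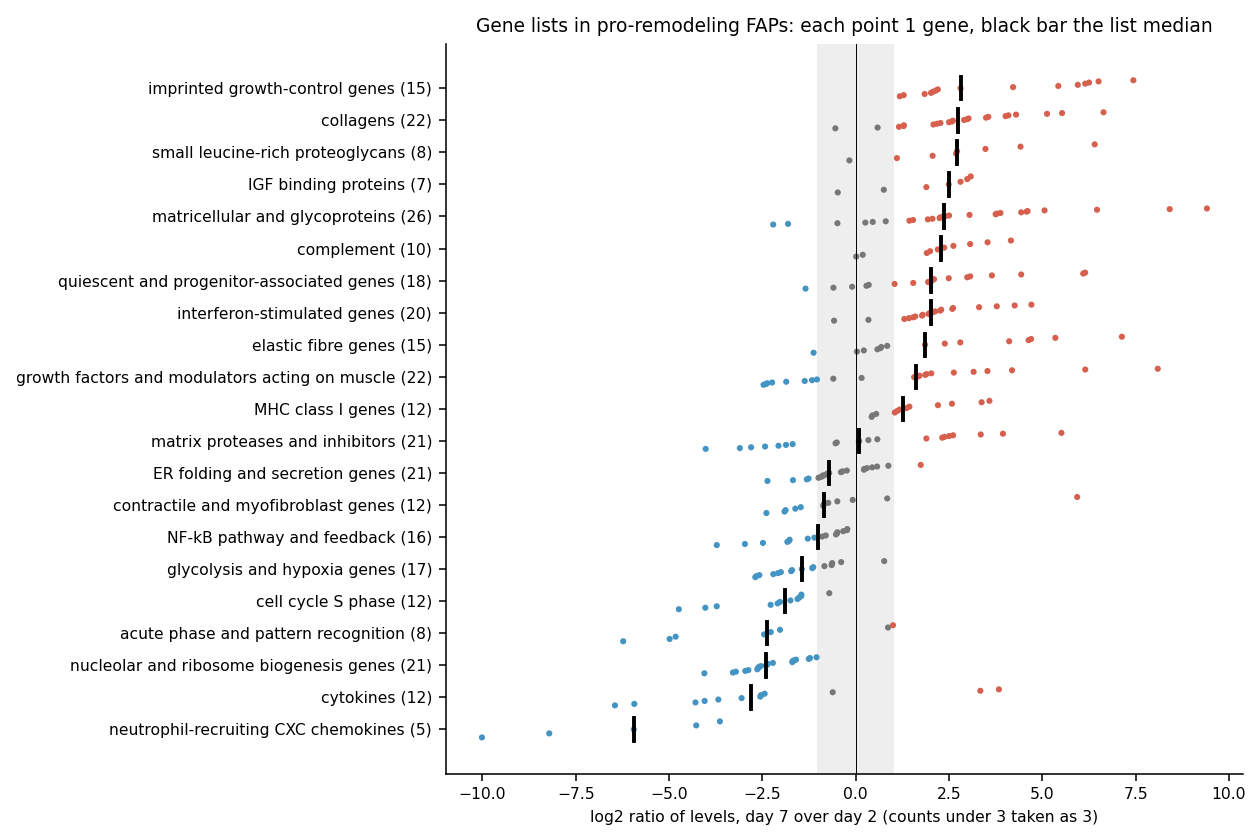
log2 ratio of day 7 over day 2 in pro-remodeling FAPs for the tested members of 21 gene lists (number tested in parentheses), with 1 point per gene, a black bar at the list median and grey shading for ratios within 2-fold. Neutrophil-recruiting chemokines and cytokines lie to the left, and collagens, proteoglycans and imprinted genes to the right.

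Taken as a difference in CPM and not as a ratio, collagens had the largest gain in summed level of all the lists. Of 22 tested collagens 20 were higher and none lower, with a median log2 ratio of 2.75, and the list summed to 7237 CPM at day 2 and 82605 CPM at day 7. Col1a1, a chain of collagen I, went from 611 CPM (585 to 637) to 21342 CPM (21224 to 21460.0). Col3a1, the chain of collagen III, went from 1537 to 26213 CPM (log2 ratio 4.09, 4.05 to 4.13). In single cells Col3a1 ran from 2.49 to 33.7 counts per 10000 between the 10th and 90th percentiles at day 2 and from 140.5 to 367 at day 7, so these ranges did not overlap. Col14a1 and Col15a1, which attach to the surface of fibrils and basement membranes, had log2 ratios of 6.64 and 5.53. The tested collagens within 2-fold were Col8a1 and Col12a1, at 442 and 71.0 CPM at day 2 and 303 and 107 CPM at day 7.

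Of 8 small leucine-rich proteoglycans 7 were higher, among them Lum (548 and 3602 CPM) and Aspn (9.69 and 820.3 CPM). Dcn, which binds collagen fibrils, was in every thinned member on both days, at 7167 and 15411 CPM. Of 26 matricellular and glycoprotein genes 20 were higher and 2 lower. Cilp, a cartilage intermediate layer protein that binds growth factors, gave 11 counts in the day 2 members and 12575 at day 7, or 3.14 CPM (1.57 to 5.61) and 2135 CPM (2098 to 2173). Postn, the matricellular protein periostin, went from 9.98 to 3403 CPM (log2 ratio 8.41, 7.94 to 8.94). At day 7 85.9% of thinned members held Cilp and 85.1% Postn, against 2.17% and 3.62% at day 2. In thinned lymphocytes at day 7 the shares were 3.86% for Cilp and 4.63% for Postn. The 2 lower genes were Tnc, tenascin C (346 and 98.5 CPM), and Thbs1, thrombospondin 1 (842 and 182 CPM). Of 15 elastic fibre genes 8 were higher and 1 lower (Ltbp2), with Mfap4, a microfibril protein, at 4.56 and 639.7 CPM. At day 2, 1 cell carried 14 of the 16 Mfap4 counts.

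Enzymes of the matrix split. Of 21 tested proteases and inhibitors 8 were higher and 7 lower, against 19.4% and 15.6% of all genes. Mmp2 and Mmp14, a gelatinase and the membrane protease that activates it, went from 191 and 178 CPM to 1947 and 926 CPM. Timp1, a metalloprotease inhibitor, went from 3365 CPM down to 208 CPM (log2 ratio -4.02, -4.10 to -3.93), and Timp2, its relative, from 184 up to 1042 CPM. The more abundant of these inhibitors was thus Timp1 at day 2 and Timp2 at day 7, as counts not set per length. Of 23 genes for collagen processing and cross-linking 8 were higher and 1 lower (Pcolce2). Serpinh1, the collagen chaperone, was within 2-fold (1242 and 1688 CPM).

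Growth factors also split, with 12 of 22 tested higher at day 7 and 8 lower. Fst, the activin and myostatin antagonist follistatin, went from 403 to 72.8 CPM. Igf1, a growth factor for muscle fibres, went from 64.1 to 741 CPM (log2 ratio 3.53, 3.34 to 3.73), and Igf2 from 5.13 to 364 CPM. Mdk (midkine) was at 18.2 CPM (14.1 to 23.3) and 333 CPM (318 to 348). Its relative Ptn (pleiotrophin) gave 0 counts in the 138 day 2 members and 1376 at day 7, and was at least 273-fold higher. At day 7 Ptn was held by 27.1% of thinned members (42.8% without thinning) and 0.386% of thinned lymphocytes. Mdk was held by 56.0% of thinned members (84.2% without thinning) and 2.32% of thinned lymphocytes. Of 7 IGF binding genes 5 were higher, Igf2r, Igfbp4 (228 and 1926 CPM), Igfbp5, Igfbp6 and Igfbp7 (886 and 3289.5 CPM).

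Imprinted genes, which are expressed from 1 parental copy and many of which act on growth, were higher at day 7 in 15 of 15 tested cases, with a median log2 ratio of 2.81. H19, a long RNA made next to Igf2, gave 19 counts at day 2, all in 1 cell, and 5540 counts at day 7, where 51.1% of thinned members and 2.70% of thinned lymphocytes held one. Meg3, another long RNA, went from 175 to 3256 CPM and Cdkn1c, a brake on the cell cycle, from 16.5 to 1259.7 CPM. Zim1, a zinc finger gene, was at 1.14 and 104 CPM. The remaining genes with the largest ratios were Pdgfrl, a secreted relative of the PDGF receptors (log2 ratio 7.27, 6.34 to 8.40), Lrrc17 (log2 ratio 6.78, 5.22 to 9.06), 1500015O10Rik, Pamr1 and the matrix protein Spon2. The last 3 gave 0 counts at day 2 and were at least 108-, 105- and 88.3-fold higher at day 7.

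All 21 tested nucleolar and ribosome biogenesis genes were lower at day 7, with a median log2 ratio of -2.40; Ncl and Npm1, abundant nucleolar proteins, went from 1215 and 2168 CPM to 202 and 466 CPM. Of 17 glycolysis and hypoxia genes 11 were lower and none higher, with Gapdh at 696 and 116 CPM and Ldha, lactate dehydrogenase A, at 934 and 202 CPM. The genes with the smallest ratios also held Asns, which makes asparagine (log2 ratio -5.56, -6.64 to -4.66), Idi1 of sterol synthesis (log2 ratio -5.10, -5.75 to -4.53), Steap1, a metalloreductase relative (log2 ratio -4.65, -5.30 to -4.07), Fosl1, an AP-1 subunit (log2 ratio -4.61, -5.59 to -3.77), and Nr4a2, a nuclear receptor (log2 ratio -4.57, -4.83 to -4.31). These span metabolism and transcription rather than 1 list.

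Cell cycle genes of S phase were lower in 11 of 12 tested cases. Mcm5, a part of the replicative helicase, went from 40.8 to 1.53 CPM (log2 ratio -4.74, -5.90 to -3.77). After thinning, 32.6% (24.9 to 41.1) of the day 2 members and 7.88% (5.66 to 10.6) of the day 7 members held at least 2 counts of the S-phase list (95.7% and 45.7% without thinning). At least 2 counts of the G2 and M phase list were held by 4 of 138 members at day 2, or 2.90%, and by 4 of 495 at day 7, or 0.808% (47.8% and 11.1% without thinning). Of the 24 genes of that list, which summed to 70.7 and 42.1 CPM, 1 could be tested, Cks2, at 49.9 and 13.9 CPM. The next most abundant, the mitotic kinase Cdk1 (1.43 and 7.98 CPM) and the cyclin Ccnb2 (1.14 and 7.13 CPM), were below the level for a call and differed in the opposite direction. Free RNA of other cells can add to such shares. The free RNA held Mcm5 at 7.53 and 10.3 CPM.

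Interferon-stimulated genes were higher at day 7 in 18 of 20 cases, with a median log2 ratio of 2.02. Ifit1, an antiviral RNA-binding protein, was at 11.4 and 157 CPM and Isg15, a ubiquitin-like modifier, at 88.4 and 303 CPM. At day 7 Ifit1 was held by 20.4% of thinned members and 13.9% of thinned lymphocytes (38.0% of members without thinning), and Isg15 by 33.3% and 39.4% (57.0%). For this list the lymphocyte shares are given for comparison and are not taken as a background level. Of 12 class I MHC genes 9 were higher, with B2m at 787 and 1626 CPM. Free RNA held B2m at 896 and 1635 CPM, and its part in these values was not tested. Reads of the near-identical H2-Q and H2-T genes cannot be assigned with certainty.

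Markers of mature fibroblast and fat states were mixed. Of 12 contractile and myofibroblast genes 5 were lower and 1 higher: Lrrc15, a marker of matrix-producing fibroblasts, at 0.855 and 52.3 CPM, while Tagln was at 21.4 and 4.07 CPM. At day 2, 9 of 138 members held Tagln and 1 cell carried 44.0% of its counts, and without that cell the level was 11.97 CPM. Of 7 tested adipogenic genes 3 were higher and 3 lower, the higher ones being Fabp4, Lpl and Apod and the lower ones Cebpb, Plin2 and Angptl4. Lpl, lipoprotein lipase, was at 96.7 and 1212 CPM and Cebpb, an early regulator of fat cells, at 922 and 229 CPM. Of 18 tested genes associated with quiescent or progenitor-like FAPs 13 were higher and 1 lower (Cxcl14), among the higher Clec3b (19.4 and 1374 CPM) and Pi16 (2.85 and 195 CPM). Immediate-early and heat-shock genes, which dissociation can induce, were higher in 7 of 23 cases and lower in 6. Fos was at 928 and 2044 CPM, and the part of handling in these levels was not tested.

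The members differed among themselves on each day. At day 2 Cxcl1 ran from 6.97 counts per 10000 at the 10th percentile to 96.5 at the 90th, Cxcl14 from 5.79 to 159, and Il6 from 0 to 18.1 around a median of 3.18. At day 7 Cilp ran from 1.46 to 46.1 around a median of 12.4, and Postn from 1.81 to 71.2 around 20.2. Col1a1 was narrower there, from 85.7 to 324. Part of the wide range of Cilp and Postn is counting error in single cells. Igf1 had a median of 0.337 counts per 10000 at day 2 and 5.63 at day 7. Apod, an apolipoprotein, reached 514 counts per 10000 in 1 day 7 cell around a median of 14.3, and Ccl2 reached 199.5 in 1 day 7 cell around a median of 0.

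The other FAP labels shared much of this. They are a separate set of cells from the same libraries, and their make-up differed between the days: stem-like FAPs gave 1269645 and adipogenic FAPs 356104 of the pooled counts at day 2, against 613180 and 1646594 at day 7. Label and day therefore cannot be told apart in the pooled values. Pooled, their own comparison of the days called 17.3% of 8217 genes higher and 18% lower. Collagens were higher in 20 of 22 cases there and nucleolar genes lower in 21 of 21, the counts seen in the members. Some lists differed more. Interferon-stimulated genes were higher in 12 of 20 cases in the other FAPs against 18 of 20 in the members. Interleukin and tumour necrosis factor receptors were lower in 1 of 19 cases against 6 of 19. Cxcl5 was at 2837 CPM at day 2 and 1.77 CPM at day 7 in the other FAPs, Cilp at 1.85 and 894 CPM, and Postn at 14.8 and 1331 CPM. The members lay above them in Cxcl5 on day 2 and in Cilp and Postn on day 7.

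Within the day 2 library, 220 of 7624 tested genes (2.89%) were at least 2-fold higher in pro-remodeling FAPs than in the other FAPs and 255 (3.34%) at least 2-fold lower, 6.23% in all. The labels come from clustering such genes, so these counts describe the label. Against stem-like FAPs alone 199 of the 220 and 218 of the 255 were called again, and against adipogenic FAPs alone 79 and 87. With levels taken as a mean over cells, 172 and 188 were called again. Of the 5 markers 4 were higher, with log2 ratios of 2.74 for Smoc2, 2.72 for Mme, 1.44 for Cxcl5 and 1.63 for Ptx3. The genes with the largest ratios were Fbln7, a matrix protein that cells attach to (61.3 against 1.85 CPM, the latter from 3 counts, log2 ratio 5.05, 3.49 to 7.34, and 2.08 less as a mean over cells), Dio3, which inactivates thyroid hormone (62.7 against 4.31 CPM), H2-Q10, Avpr1a, a vasopressin receptor, Ank3, Fblim1, Tpm2 and Sept4. Their log2 ratios ran from 3.08 for Sept4 to 5.05 for Fbln7. Tpm2 and Fblim1 act in the actin skeleton, and Tpm2 was at 114 against 13.5 CPM. The smallest ratios belonged to Sbsn (3.99 against 137 CPM), Pi16 (2.85 against 75.7 CPM), Gdf10, Tmem26, S100a9, Aldh1a3, a retinoic acid enzyme, Fn1 (fibronectin; 100.4 against 1041 CPM) and Slc4a4. Which of the other labels carried them differed by gene. Fn1 was at 1305 CPM in stem-like and 98.3 CPM in adipogenic FAPs, Tmem26 at 86.6 and 2.81 CPM, and Gdf10 at 5.51 and 345 CPM. Set against adipogenic FAPs alone, Fn1 and Tmem26 were not lower in the members (100.4 and 3.71 CPM). Monocyte and macrophage markers summed to 725 CPM in adipogenic FAPs against 167 CPM in the members, but their medians per cell were 1.10 and 0.981 counts per 10000, and the highest adipogenic cell reached 136. S100a9 was at 593 CPM in adipogenic FAPs, where all 5 neutrophil markers summed to 904 CPM against 20.8 CPM in the members and 984 CPM in free RNA. Few adipogenic cells carried it: the median over the 30 cells was 0, the 90th percentile 0.739 and the highest 80.3 counts per 10000. With SoupX values, which correct for free RNA, the log2 ratio of S100a9 against the other FAPs (-3.73) was lower by 3.40. Against stem-like FAPs alone, S100a9 was within 2-fold (10.5 against 12.6 CPM).

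By list, of 21 genes associated with quiescent or progenitor-like FAPs 13 were lower in the day 2 members and 3 higher (Cxcl14, Hsd11b1 and Lpl) than in the other FAPs. The list as a whole summed to more in the members, 8567 against 5204 CPM, of which Cxcl14 alone was 7362 against 1901 CPM. Cd34, a surface marker of progenitors, was at 173 against 519 CPM, and after thinning 39.9% of members, 40.0% of adipogenic FAPs and 78.7% of stem-like FAPs held a count (81.9%, 66.7% and 100% without thinning). S-phase genes were lower in 10 of 17 cases, and after thinning 32.6% (24.9 to 41.1) of pro-remodeling, 40.0% (21.1 to 61.3) of 25 adipogenic and 63.8% (48.5 to 77.3) of 47 stem-like FAPs held at least 2 S-phase counts (95.7%, 76.7% and 95.7% without thinning). The intervals of pro-remodeling and adipogenic FAPs overlapped. Among cytokines 3 of 11 were higher, Lif (237 against 48.6 CPM), Tslp and Csf2, and among acute-phase genes 3 of 7, Ptx3, Saa1 and Saa3. Saa3 was at 635 CPM in the members, 309 CPM in adipogenic FAPs and 26.0 CPM in stem-like FAPs, and its 90th percentile over cells was 7.75 counts per 10000 in the members and 22.9 in adipogenic FAPs. Of 18 collagens 6 were higher and 1 lower (Col14a1), and of 11 contractile genes 3 were higher (Acta2, Myl9 and Tpm2). Nucleolar, glycolysis and heat-shock lists had no gene past 2-fold in either direction.

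**Figure D4:**
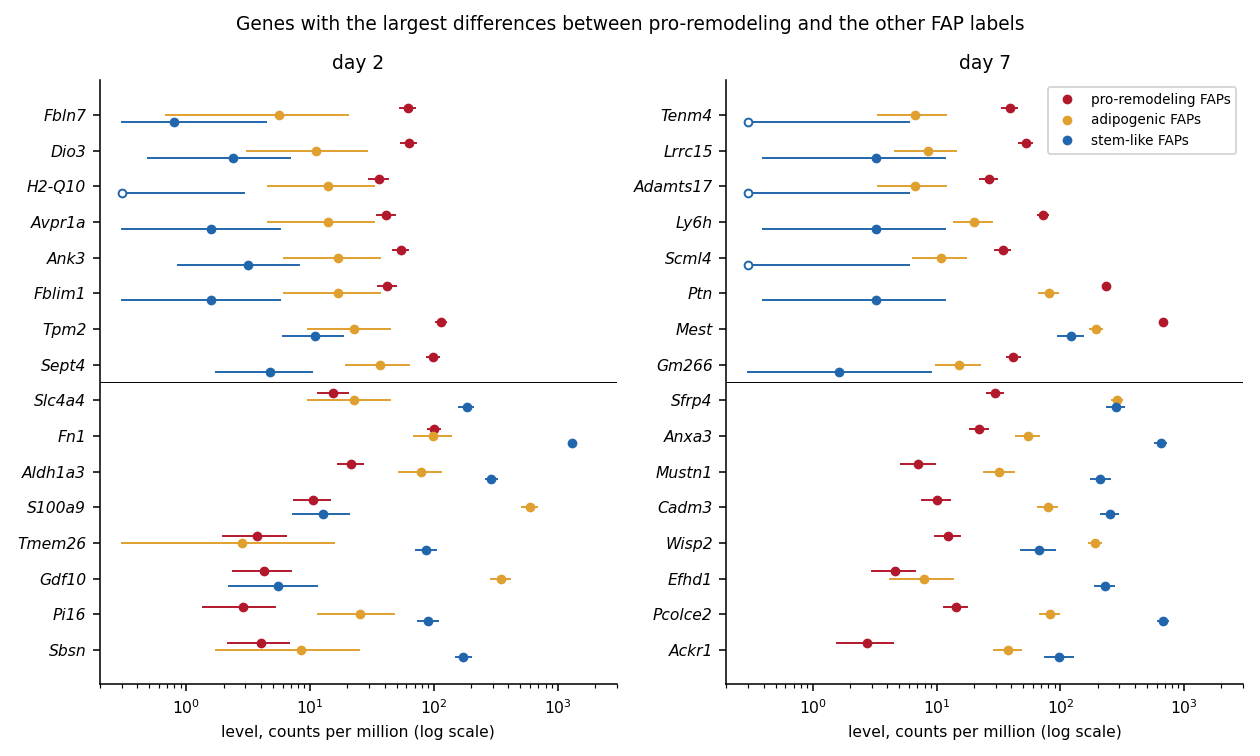
CPM on a log scale in pro-remodeling, adipogenic and stem-like FAPs for the 8 genes with the largest (upper part) and the 8 with the smallest (lower part) ratio of pro-remodeling over the other FAPs, at day 2 and day 7. Lines are 95% counting intervals and open circles at the left edge mark 0 counts; for most genes in the lower part the stem-like FAPs lie highest.

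Within the day 7 library, 160 of 8306 genes (1.93%) were at least 2-fold higher than in the other FAPs and 213 (2.56%) lower, 4.49% in all. Against adipogenic FAPs alone 104 of the 160 and 136 of the 213 were called again, and against stem-like FAPs alone 129 and 158. With levels taken as a mean over cells, 90 and 154 were called again. Of the markers, Mme was higher (134 against 62.8 CPM) and Ptx3 lower (50.4 against 111 CPM), whereas Smoc2 was within 2-fold (2673 against 1535 CPM). The largest ratios belonged to Tenm4, a teneurin (38.9 against 4.87 CPM), Lrrc15 (52.3 against 7.08 CPM), Adamts17, a secreted protease, Ly6h, Scml4, Ptn (234 against 59.3 CPM), Mest, an imprinted gene (670.4 against 175 CPM), and Gm266. As a mean over cells the log2 ratio of Adamts17 moved by 1.02, the largest move among the 25 ratios checked. After thinning Lrrc15 was held by 9.90% of members, 1.60% of adipogenic FAPs and 1.49% of stem-like FAPs, and by 0 of 259 lymphocytes (20.2% of members and 4.52% of the other FAPs without thinning). The smallest ratios belonged to Ackr1, a chemokine-binding receptor, Pcolce2, a collagen processing enhancer (14.3 against 244 CPM), Efhd1, Wisp2, Cadm3, Mustn1, Anxa3 and Sfrp4, a Wnt inhibitor (29.7 against 284 CPM). Pcolce2 was at 678 CPM in stem-like FAPs and 82.0 CPM in adipogenic FAPs, and Wisp2 at 66.9 and 192 CPM, so the label that stood highest differed again.

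At day 7, of 15 imprinted genes 7 were higher in the members than in the other FAPs and none lower. Mest, for example, was held by 60.2% of thinned members, 29.9% of adipogenic and 14.9% of stem-like FAPs, and by 6.18% of lymphocytes. Of 26 matricellular genes 7 were higher and 3 lower, with Cilp at 2135 against 894 CPM and Postn at 3403 against 1331 CPM. Complement genes were lower in 5 of 13 cases, C2, C3 (761 against 2594 CPM), C4b (66.0 against 379.7 CPM), C7 and Cd55, and Wnt genes in 4 of 9, all of them secreted inhibitors of the Sfrp family (Sfrp1, Sfrp2, Sfrp4 and Sfrp5). Progenitor-associated genes were lower in 9 of 20 and higher in 1 (Hsd11b1). Pi16 was lower in the members on both days, at 195 against 1765 CPM at day 7. Collagens were higher in 5 of 23 cases (Col6a3, Col8a1, Col12a1, Col15a1 and Col23a1), with Col3a1 at 26213 against 23124 CPM, within 2-fold.

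**Figure D5:**
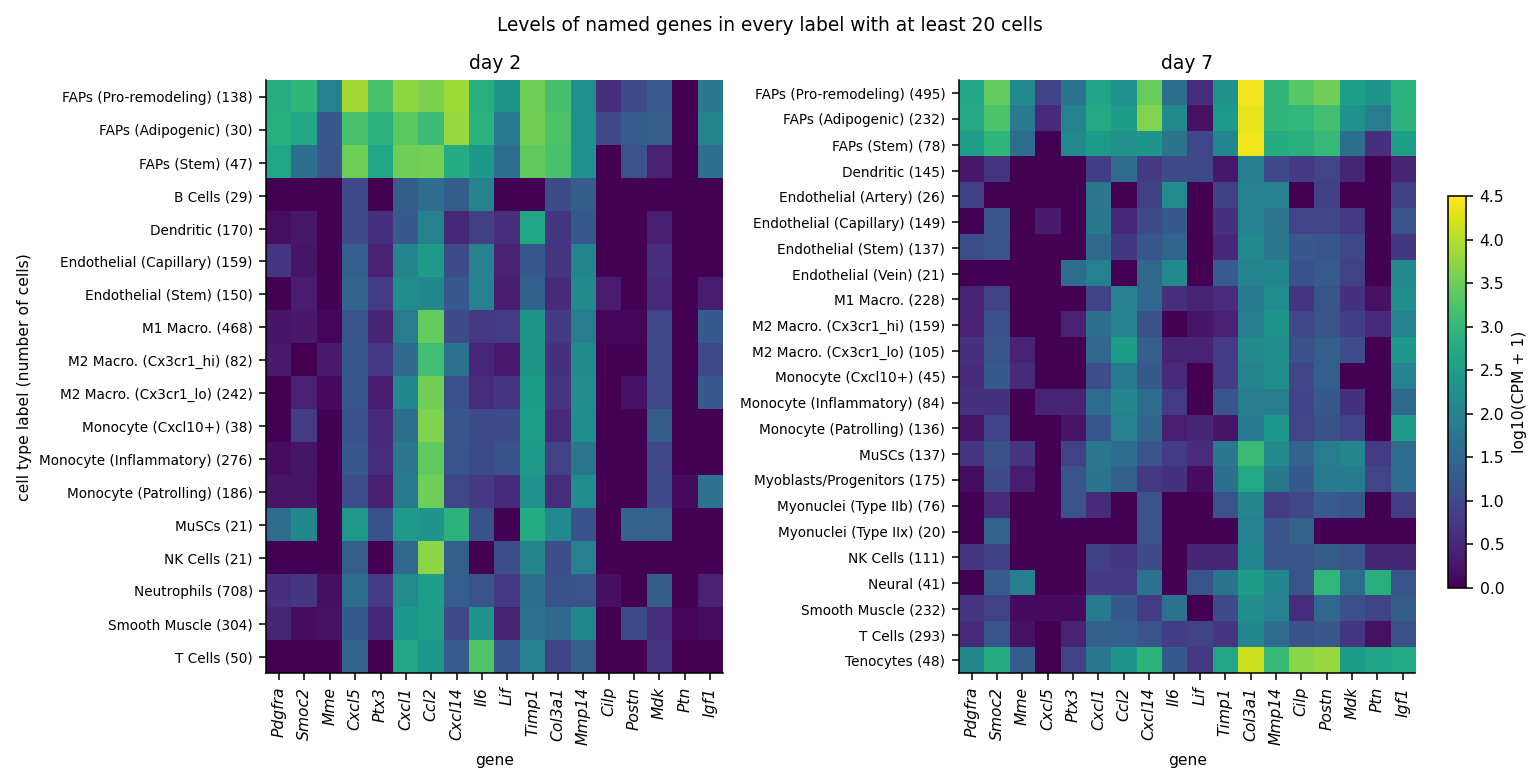
Levels of 18 named genes as log10(CPM + 1) (colour scale) in each label with at least 20 cells (number of cells in parentheses) at day 2 and day 7. Cxcl5 and Ptx3 are bright in the FAP rows at day 2, and Cilp, Postn and Col3a1 in the FAP and tenocyte rows at day 7.

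Beyond the FAPs, the plot of levels by label shows which genes other cells held. At day 2 Cxcl5 was at 275 CPM in 21 muscle stem cells and 37.5 CPM in neutrophils, both far below the members. Ccl2 was found in the monocyte and macrophage labels at similar levels, and pro-remodeling FAPs were at rank 3 of 18 for it. At day 7 tenocytes, the cells of tendon, held Postn at 6327 CPM and Cilp at 5009 CPM, above the 3403 and 2135 CPM of the members. Mdk was highest in the members at day 7, and tenocytes and neural cells held more Ptn, at 416 and 695 CPM.

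Markers of other cell types were low in the members. The 13 genes of general FAP identity all had counts and summed to 18592 CPM at day 2 and 88646 CPM at day 7. All 10 monocyte and macrophage markers had counts, summing to 167 CPM at day 2 and 153 CPM at day 7, against 4546 and 6110 CPM in free RNA. Neutrophil markers summed to 20.8 and 1.70 CPM, endothelial markers to 33.9 and 35.1 CPM, and tenocyte markers to 1.14 and 32.1 CPM. Lymphocyte markers summed to 6.27 and 3.06 CPM, neural markers to 6.27 and 14.9 CPM, smooth muscle and pericyte markers to 6.84 and 29.2 CPM, and erythroid markers to 6.56 and 5.09 CPM. All of these sums were below those of free RNA, though single genes were not: Cd79a, a B cell gene, was at 5.70 CPM against 3.602 CPM in free RNA at day 2, and at day 7 the tenocyte gene Tnmd was at 14.3 against 8.05 CPM and the glial gene Cdh19 at 12.1 against 4.23 CPM. Of 6 myogenic markers Des had counts on day 2, the other 5 being at 0, and the sums were 24.8 and 28.4 CPM. Myofibre markers summed to 11.1 CPM at day 2 and 625 CPM at day 7, beside 683 and 24890 CPM in free RNA, and 1 day 7 cell reached 468 counts per 10000. These transcripts moved with the day, and their part in other differences was not tested.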

How the data were processed

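Single-cell RNA sequencing (10x Genomics, version 3 chemistry) was run on 1 day 2 and 1 day 7 library. The authors deposited UMI counts per gene for 27998 mouse genes (mm10), filtered and unfiltered, with estimated counts corrected for free RNA by SoupX, and a cell table with their labels. The matrix headers name Cell Ranger 3.0.1 and the labels Cell Ranger 3.1.0 and Seurat 3.1.5. DoubletFinder was run by the authors before annotation and no doublet calls were used here. Cells were kept if their SoupX values held 750 or more genes, 1000 or more transcripts and no more than 30% mitochondrial counts. Deposited counts were summed over members and scaled to CPM. Intervals are exact 95% intervals (Poisson for levels, conditional binomial for ratios, Clopper-Pearson for shares), and beside a share of 0 the limit is 3 counts of the total. Genes with a mean of at least 10 CPM and a 2-fold difference were called. A gene with 0 counts on one side was set at a floor of 3 counts. With 1 library a day no p-value could be had. Free RNA was read from barcodes with 1 to 100 counts. Members, gene lists and tests were chosen with earlier results of these data known.

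Named genes were the markers and the 12 smallest and 12 largest ratios between days. Added to these were the 8 smallest and 8 largest ratios against the other FAPs on each day. Ranked genes had at least 100 summed counts on one side and a count in at least 20% of the cells there. Mitochondrial, ribosomal protein, haemoglobin and myofibre-marker genes were left out of the ranking. From each list came the 3 highest and 3 most different genes. Gene positions came from GENCODE vM21, which matched 27645 of 27998 gene identifiers, and promoters from RefSeq. Ratios were tested on simulated data. Python 3.11.15, numpy 2.4.6, scipy 1.17.1, pandas 2.3.3, scanpy 1.11.5 and leidenalg 0.10.2 were used. Alternatives were other cell limits, SoupX values, the mean over cells, median-of-ratios scaling, other filters and folds, removal of doublet-like cells, each other FAP label alone and clusters of these libraries alone.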

Additional observations from a re-analysis of the deposited data

Results flagged for a closer look

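Some called barcodes carried the markers of pro-remodeling FAPs but no cell type, and they enter no comparison above. Within the cell limits, 52 of 710 such barcodes at day 2 and 14 of 502 at day 7 held at least 5 counts of the 5 markers and at least 1 of Pdgfra. Of the members 136 of 138 and 465 of 495 met this, and of neutrophils and lymphocytes 1 of 808 and 0 of 427. The unlabelled barcodes were deep, with medians of 24895 and 18304 counts. Among them 8 of 52 and 11 of 14 also held markers of another cell class, against 7 of 138 and 9 of 495 members. At day 2 they held Cxcl5 at 4094 CPM and Smoc2 at 394 CPM, and monocyte and macrophage markers at 871 CPM. At day 7 those markers summed to 12753 CPM beside 153 CPM in the members, with Cilp at 1409 CPM and Postn at 1752 CPM. Whether these barcodes hold 1 cell or several was not tested.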

How the results depend on the processing

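With 1 library per day there is no replicate error, and the intervals cover counting error only. No paired analysis was possible because each day has 1 library. Among the 193 day ratios named, 1 of those past 2-fold changed sign, and changes within 2-fold were not counted. The gene was Myl1, a myofibre gene, at -0.75 with SoupX values. There both days were at the floor of 3 counts, so only their totals set the ratio. The counts of genes higher and lower at day 7 were 510 and 636 at a mean of at least 50 CPM, 6398 and 2411 with no filter, and 886 and 546 at 3-fold. Against the other FAPs at day 2 they were 73 and 62, 2437 and 2096, and 76 and 97 under the same settings, and at day 7 51 and 75, 2912 and 2043, and 37 and 96. Against adipogenic FAPs alone 471 genes were lower at day 2. Among named genes past 2-fold in the pooled comparison, the log2 ratios of Fn1 (0.030), Mdk (-0.30) and Tmem26 (0.40) changed sign. Changes of sign in genes within 2-fold were not counted. Against stem-like FAPs alone 608 genes were higher and 489 lower at day 7. The share among FAPs was 68.9% at day 7 under stricter cell limits, and with clusters of these libraries alone the cells of clusters led by that label made up 99.5% at day 2 and 84.3% at day 7 of all cells in clusters led by a FAP label. The S-phase share was 9.42% at day 2 and 0.202% at day 7 at 4 counts, and 95.7% and 45.7% without thinning. The G2 and M share was 0 on both days at 4 counts, and 47.8% and 11.1% without thinning. The 5 markers summed to 521.9 CPM in day 7 barcodes of 1 to 10 counts. Median-of-ratios scaling moved the log2 ratios between days by 0.05.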

Other observations

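Several signalling lists were not described above. Of 7 tested Wnt ligands and inhibitors 6 were higher in pro-remodeling FAPs at day 7 and none lower. They include the ligand Wnt5a (7.98 and 44.3 CPM at day 2 and day 7) and the secreted inhibitor Sfrp2 (5.13 and 30.6 CPM). Of 3 PDGF genes 2 were higher, Pdgfrl and Pdgfrb, the latter a receptor shared with pericytes (93.5 and 272 CPM). Of 17 TGF-beta genes 4 were higher (Ltbp3, Ski, Tgfb3 and Tgfbr2) and 2 lower (Ltbp2 and Smad7), against 19.4% and 15.6% of all genes. Tgfb3, a ligand, was at 5.70 and 70.3 CPM, and Smad7, an intracellular inhibitor of the pathway, at 256 and 56.9 CPM.

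Of 10 prostaglandin genes 4 were lower at day 7 (Ptges2, Ptges3, Ptgis and Ptgs2) and 1 higher (Hpgd). Ptgs2, the inducible cyclooxygenase, was at 670.0 and 49.1 CPM, and Hpgd, which breaks prostaglandins down, at 8.27 and 26.0 CPM, with 62.1% of its day 2 counts in 1 cell. Of 7 hyaluronan genes 3 were lower (Cd44, Has1 and Tnfaip6) and 1 higher, Itih5, which binds hyaluronan (40.5 and 1629.6 CPM). Of 21 genes for folding and secretion in the endoplasmic reticulum 4 were lower (Hspa5, Hyou1, Manf and Sdf2l1) and 1 higher (Kdelr3), and Hspa5, the main chaperone there, was at 1737 and 701 CPM. Genes named here to fill out a small count were chosen after their values were seen.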
